A study of Mus musculus with 27 samples.

Results

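Hepatokines are proteins that the liver secretes into the blood and that act on metabolism in other tissues or in the liver itself. The genes described here are Fgf21, Gdf15, Inhbe, Inhbc, Angptl4, Angptl6, Angptl8, Fetub and Ahsg, taken by their GENCODE M21 symbols as 9 of the 43346 gene rows in the deposited count table. All 9 passed the filter on low counts, as did 14482 genes in all. RNA had been sequenced from hepatocytes, the main cell type of the liver, of female mice at 12 weeks of age from 9 inbred strains, with 3 libraries per strain that the titles call biological replicates. Of these, CAST/EiJ, PWK/PhJ and WSB/EiJ were derived from wild-caught mice, and NZO/HlLtJ, NOD/ShiLtJ, DBA/2J, A/J, 129S1/SvImJ and C57BL/6J are classical laboratory strains. No mouse carried a listed transgene or treatment, and whether a library came from 1 mouse or a pool is not given in the sources used here. The wider study related inherited variation among these strains to chromatin marks and to expression; only expression was analysed here.

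FGF21 and GDF15 are stress hormones. FGF21 signals through an FGF receptor paired with the co-receptor beta-klotho, and GDF15 acts on the brainstem receptor GFRAL and its partner RET. INHBE and INHBC, which are made almost only by the liver, are the beta E and beta C subunits of activins, members of the TGF-beta family. ANGPTL4 and ANGPTL8 take part in inhibiting lipoprotein lipase, the enzyme that releases fatty acids from circulating triglycerides; ANGPTL6 is an angiopoietin-like growth factor. AHSG (fetuin-A) and FETUB (fetuin-B) are abundant plasma proteins of the cystatin superfamily: fetuin-A binds calcium phosphate and inhibits the insulin receptor, and fetuin-B inhibits the protease ovastacin and is needed for female fertility.

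The promoters of 8 of the 9 genes were matched in a RefSeq table (build GRCm38.p6, 250 bases before to 50 after the annotated start, 10 entries). Fgf21, Inhbe and Angptl8 shared the 8 letters TGATGCAA, searched on both strands, which are a composite element for C/EBP and ATF transcription factors. These letters were in 294 of 32851 promoters of the same length (0.895%). The 30 bases around each occurrence are shown because the capitals mark the letters that the 3 promoters have in common; all 3 are read in the direction of the element.
Fgf21 element (chr7:45615611-45615640, plus strand): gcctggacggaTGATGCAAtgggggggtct
Inhbe element (chr10:127352011-127352040, plus strand): gtggacatgcaTGATGCAAgaaagaggatg
Angptl8 element (chr9:21835369-21835398, plus strand): agccatcagtcTGATGCAAtggctgagcct
In the direction of transcription the element began 139 bases before the start in Fgf21, 181 in Inhbe and 130 in Angptl8, and it read against the direction of the gene in Fgf21 and Inhbe and along it in Angptl8. The RefSeq start used for Inhbe lies inside the longer GENCODE gene model. The 250 bases before the start are shown for Fgf21 and Angptl8, each in the gene's own direction, to place the element within the promoter.
Fgf21 promoter (chr7:45615491-45615740, minus strand): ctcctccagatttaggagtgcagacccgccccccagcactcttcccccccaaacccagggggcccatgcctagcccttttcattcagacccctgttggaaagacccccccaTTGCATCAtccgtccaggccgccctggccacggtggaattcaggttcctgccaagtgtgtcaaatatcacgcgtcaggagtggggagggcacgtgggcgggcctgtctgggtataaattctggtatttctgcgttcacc
Angptl8 promoter (chr9:21835260-21835509, plus strand): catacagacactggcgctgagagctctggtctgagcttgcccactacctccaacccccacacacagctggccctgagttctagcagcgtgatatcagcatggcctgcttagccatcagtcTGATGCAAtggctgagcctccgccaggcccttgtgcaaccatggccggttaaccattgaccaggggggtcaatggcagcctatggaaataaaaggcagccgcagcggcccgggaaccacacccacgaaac
The capitals again mark the element, which reads as its reverse complement in the Fgf21 promoter. Fgf21 also held an E-box (CACGTG, in 7.15% of promoters) 50 bases before its start and a TATA box (TATAAA, in 13.6%) at 28 bases. Of the other members, 1 of the Gdf15 entries held CACGTG and 1 Fetub entry TATAAA. A match describes the letters only.

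Library totals ran from 17015932 to 35078483 estimated counts, so that 1 count stood for 0.0253 to 0.0516 CPM, the unit of counts scaled to library size that is used below. Hepatocyte markers were high in all libraries, with the sum of 10 markers between 101800 and 307300 CPM, and transcripts of other liver cells varied between libraries. The sum of 10 markers of Kupffer cells, the liver macrophages, ran from 35 to 442.1 CPM, that of 10 liver endothelial markers from 62.7 to 808.6, and that of 10 stellate cell markers from 31 to 194.3. All 3 maxima were in PWK/PhJ replicate 1, a library that stood apart in this respect. Markers of cholangiocytes summed to at most 9.64 CPM and those of lymphocytes to at most 11.7. In bulk samples such as these, a change in the number of cells of a type and a change in RNA per cell cannot be told apart.

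All 9 hepatokine genes differed among the strains in the edgeR quasi-likelihood test (Benjamini-Hochberg adjusted p under 0.05 over all genes tested). So did 74.2% of all genes tested, so the count alone sets the group little apart. The sizes of the differences were larger than for most genes: the median distance between the highest and lowest strain mean was 1.98 on the log2(CPM + 0.5) scale for the members, against 0.95 over all genes tested. The levels of the members, compared per kilobase of exon, covered a wide range. The median over the 27 libraries was 4242 CPM per kilobase for Ahsg and 390.9 for Fetub, then 40.8 for Inhbc, 33.9 for Angptl4 and 32.4 for Angptl8. It was 5.64 for Inhbe, 2.42 for Angptl6, 2.07 for Gdf15 and 0.977 for Fgf21. In levels, the fetuins thus stood far above the hormones, and Fgf21 was the scarcest transcript of the group.

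**Figure D1:**
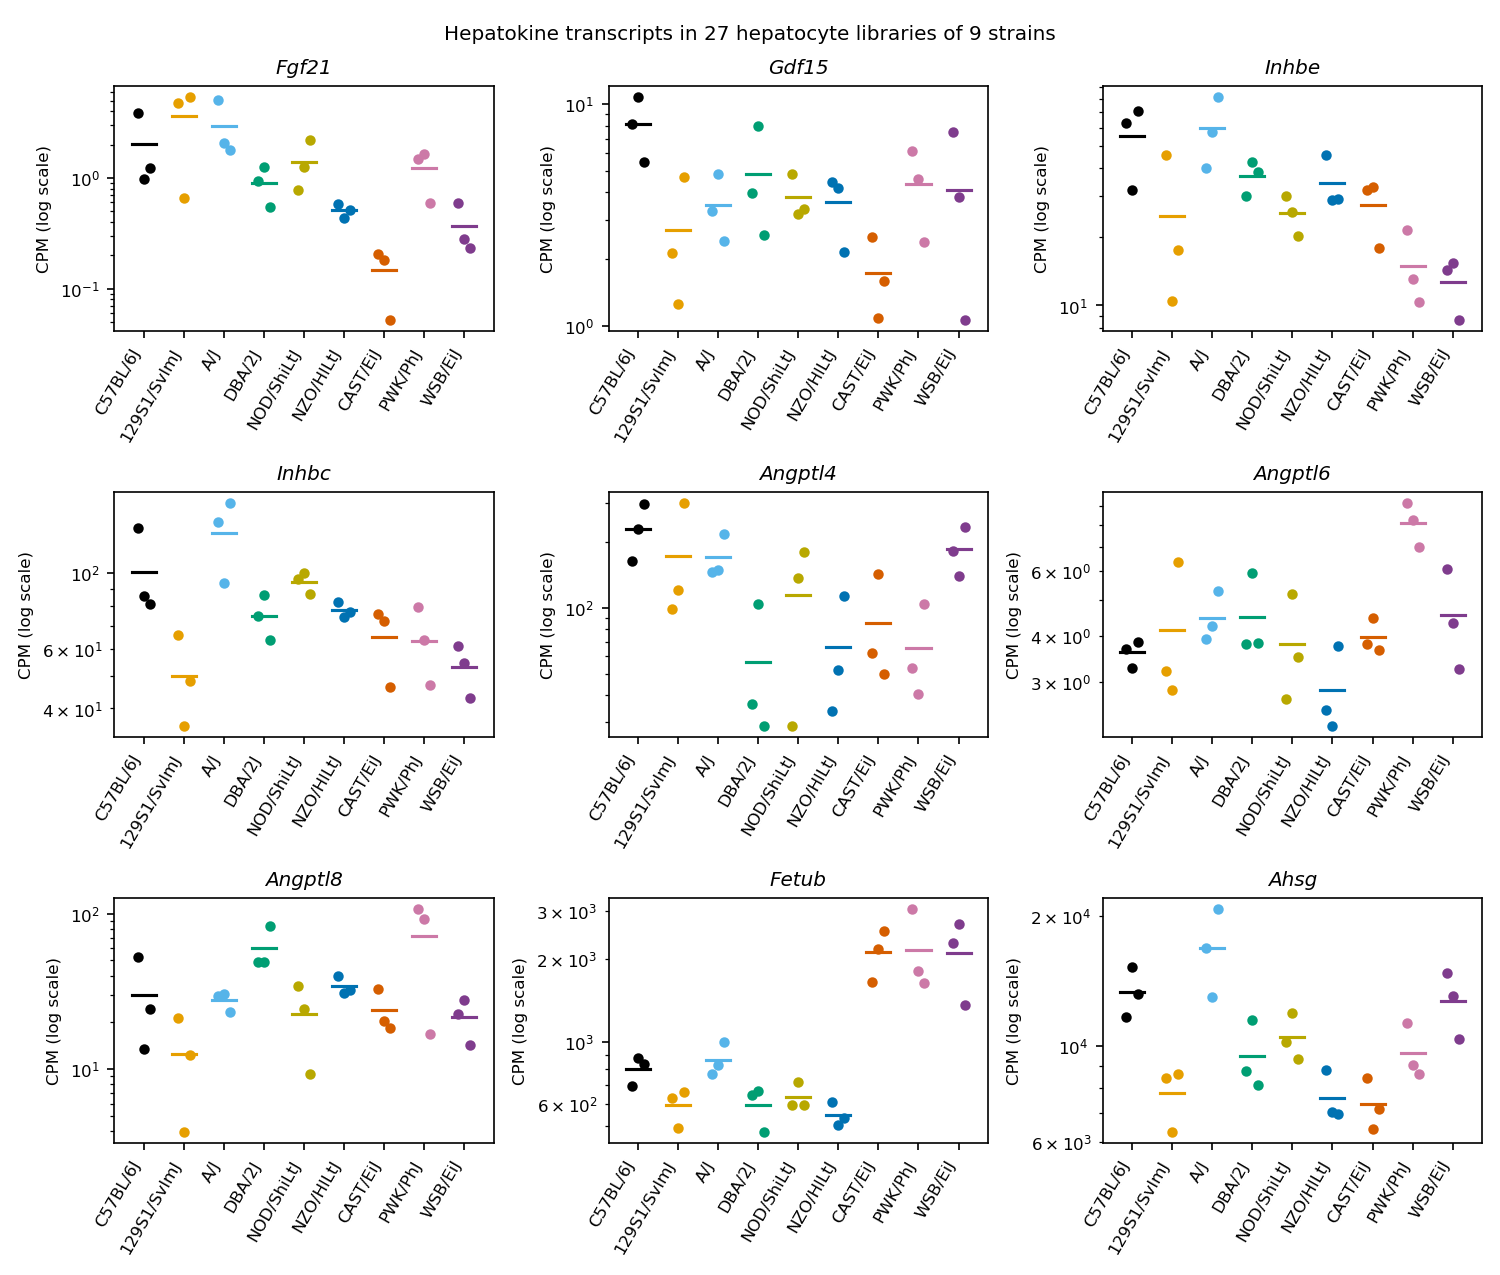
CPM of the 9 hepatokine genes (log scale, 1 panel per gene) in each of the 27 libraries, by strain; points are libraries and bars are strain means. Fetub forms a separate upper group in CAST/EiJ, PWK/PhJ and WSB/EiJ, and Fgf21 is lowest in CAST/EiJ.

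Each strain was then set against the equal-weight mean of the 8 others in the same fit. Of the 81 gene-by-strain tests of the members, 29 passed, against 24.1% of such tests over all genes. Over all genes, the share called in either direction ran from 13.3% in DBA/2J to 37.9% in CAST/EiJ. The libraries enter all 9 contrasts, which are therefore not independent. In A/J, 4 members were higher and 0 lower (15.9% and 11.6% of all genes tested), namely Fgf21, Inhbe, Inhbc and Ahsg. In C57BL/6J, 4 were higher and 0 lower (11.6% and 6.5%), namely Gdf15, Inhbe, Angptl4 and Ahsg. In CAST/EiJ only Fetub was higher, and Fgf21, Gdf15 and Ahsg were lower (20.1% and 17.8%). In NZO/HlLtJ, 0 were higher and 3 lower, namely Angptl6, Fetub and Ahsg (14.8% and 12.9%). In PWK/PhJ, Angptl6, Angptl8 and Fetub were higher and Inhbe lower (19.4% and 14.8%), and in WSB/EiJ Fetub was higher and Inhbe and Inhbc lower (15.5% and 9.25%). In 129S1/SvImJ, Fgf21 was higher and Inhbc, Angptl8 and Fetub were lower (10.5% and 7.86%), in DBA/2J Angptl8 was higher and Fetub lower (9.5% and 3.78%), and in NOD/ShiLtJ only Fetub was called, as lower (9.2% higher and 5.72% lower over all genes). For every classical strain the 8 others include the 3 wild-derived strains, in all of which Fetub was higher.

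**Figure D2:**
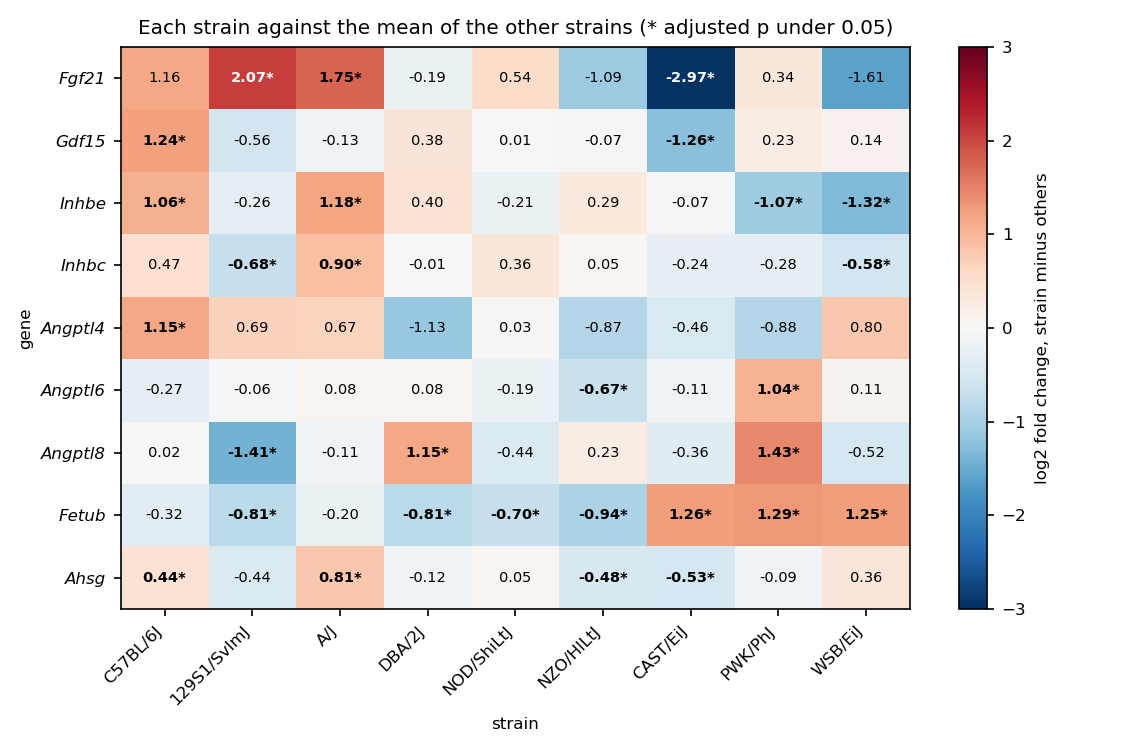
Log2 fold change of each hepatokine gene (rows) in each strain (columns) against the mean of the 8 other strains; red is higher, blue lower, and an asterisk marks an edgeR adjusted p under 0.05. The Fetub row is positive in the 3 wild-derived strains and negative in the other 6.

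Neighbours in the strain order of a gene rarely differed. Of the 72 pairs of neighbouring strains over the 9 genes, 2 passed the edgeR test. Over all genes tested, 22% of the tests in these 72 contrasts passed, and 2.96% of the tests of neighbours when each gene was put in its own strain order. These were the step from WSB/EiJ down to A/J in Fetub and from PWK/PhJ down to WSB/EiJ in Angptl6. The orders given below are therefore not resolved step by step.

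Fgf21 (ENSMUSG00000030827, chr7:45613886-45615490) was low and had the widest fold range among strains of the 9 genes. Its 3 libraries in 129S1/SvImJ had 4.78, 0.658 and 5.38 CPM, and those in A/J had 5.07, 2.06 and 1.78 CPM. In CAST/EiJ they had 0.207, 0.181 and 0.0516 CPM, which are 7, 6 and 1 counts. Every CAST/EiJ library lay below each of the other 24 libraries, whereas the lowest 129S1/SvImJ library fell among those of strains in the middle of the order. A lack of overlap of 3 libraries with the other 24 occurred in 2.83% of gene-by-strain cases.

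The strain means of Fgf21 fell from 3.61 ± 2.57 CPM in 129S1/SvImJ (SD, n = 3, as for all means below) through 2.97 ± 1.83 in A/J, 2.03 ± 1.62 in C57BL/6J, 1.41 ± 0.722 in NOD/ShiLtJ and 1.24 ± 0.564 in PWK/PhJ. Below these came DBA/2J with 0.909 ± 0.357, NZO/HlLtJ with 0.51 ± 0.078, WSB/EiJ with 0.368 ± 0.195 and CAST/EiJ with 0.147 ± 0.0833. The highest mean was 24.6-fold above the lowest, a ratio that rests on few counts in CAST/EiJ. In edgeR the log2 fold change against the other strains was 2.07 ± 0.39 (SE) in 129S1/SvImJ (adjusted p = 0.00056), 1.75 ± 0.42 in A/J (adjusted p = 0.00299) and -2.97 ± 0.68 in CAST/EiJ (adjusted p = 0.00128). The A/J call rested on replicate 1, without which the log2 value was 1.12 and the adjusted p was 0.104. Of the genes next to Fgf21, Bcat2, an enzyme of branched-chain amino acid breakdown, had 20.3 ± 2.65 CPM in CAST/EiJ and 17.4 ± 3.14 in 129S1/SvImJ, and Fut1 was too low to compare, with at most 0.3 CPM in any strain mean.

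Genes through which FGF21 acts or is regulated were measured in the same fit. Klb, which encodes beta-klotho, was highest in A/J (64.7 ± 9.95 CPM) and lowest in NOD/ShiLtJ (32.6 ± 2.01 CPM), with an edgeR adjusted p of 6.73e-05. Fgfr4, the main FGF receptor of hepatocytes, lay between 69.1 ± 3.75 CPM in CAST/EiJ and 103.6 ± 16.4 in WSB/EiJ and missed the threshold (edgeR adjusted p = 0.0563). Fgfr1, another FGF receptor and named after its values were seen, was low. It ran from 0.291 ± 0.175 CPM in 129S1/SvImJ to 2.38 ± 1.2 in C57BL/6J (edgeR adjusted p = 0.000583). Which receptor FGF21 uses in these cells was not tested. Of 14 tested receptors and binding partners of the hepatokines, 12 were called for the strain effect (85.7%, against 74.2%), with the largest ranges among those averaging at least 10 CPM in Fgfr2 (1.96 on the log2 scale), Fgfr3 and Insr (1.5 each). Insr, the insulin receptor, had 230.7 ± 36.3 CPM in A/J and 81.1 ± 1.87 in CAST/EiJ. Gfral had 0 counts in all libraries and Ret and Kl were close to 0, as were Acvr1c and Fstl3, so these were not tested.

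PPAR-alpha is a nuclear receptor that switches on fat oxidation in fasting, and Fgf21 and Angptl4 are among its known targets. Of a list of 18 genes made of Ppara and other targets, 16 were called for the strain effect (88.9%, against 74.2% over all genes tested). The largest ranges of the list were in Cyp4a14, a fatty acid hydroxylase with 2049 ± 59.5 CPM in A/J and 15 ± 3.39 in PWK/PhJ, and in Vnn1, a pantetheinase with 152.3 ± 78.1 CPM in C57BL/6J and 5.39 ± 1.96 in CAST/EiJ. Ppara itself ran from 33.9 ± 4.81 CPM in DBA/2J to 75.6 ± 22.7 in C57BL/6J (edgeR adjusted p = 0.00209). In the 129S1/SvImJ contrast 7 of the 18 were higher and 0 lower (10.5% and 7.86% over all genes), and in CAST/EiJ 3 were higher and 4 lower (20.1% and 17.8%). Of 16 tested genes of the integrated stress response, which acts through ATF4 on elements such as the one shown above, 12 were called, a share of 75%, near the 74.2% over all genes tested. Atf4 had its highest level in NZO/HlLtJ (62.8 ± 1.86 CPM) and its lowest in A/J (39.6 ± 3.44 CPM). Among genes of this list averaging at least 10 CPM, the largest ranges were in Cth, a cysteine-producing enzyme with 1009 ± 262.6 CPM in CAST/EiJ and 203.6 ± 44.4 in A/J, and in Atf5, with 329.8 ± 12.4 CPM in NZO/HlLtJ and 125.8 ± 32 in PWK/PhJ. Below that level, and named after their values were seen, Vldlr (3.68 on the log2 scale) and Ddit4 (3.01) had larger ranges than Cth (2.31), and Trib3 (1.83), Chac1 (1.62) and Asns (1.44) had larger ones than Atf5 (1.39). Vldlr had its highest mean in 129S1/SvImJ, as Fgf21 did, with 21.6 ± 9.11 CPM. So had Ddit4, but through replicate 3 alone: its 129S1/SvImJ libraries had 1.27, 14.6 and 40.5 CPM, with the lowest in replicate 1, where Fgf21 was at 4.78 CPM. Over the 27 libraries the levels most like those of Fgf21 were of Mpc2 (Pearson r 0.801; 0.898 over the 9 strain means), a subunit of the mitochondrial pyruvate carrier, Fam160a1 (0.785; 0.85) and Tspan12 (0.764; 0.907). These values, like those for the other members below, are a description: they are the highest among 7998 genes and include the strain differences.

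Gdf15 (ENSMUSG00000038508, chr8:70629393-70632456) was highest in C57BL/6J. The C57BL/6J libraries had 8.17, 10.8 and 5.47 CPM, and those of CAST/EiJ had 2.51, 1.09 and 1.6 CPM. These groups did not overlap each other, but single libraries of DBA/2J (7.98 CPM), WSB/EiJ (7.46 CPM) and PWK/PhJ (6.15 CPM) reached the C57BL/6J range, and WSB/EiJ replicate 4 was the lowest of all with 1.06 CPM.

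The strain mean of Gdf15 was 8.13 ± 2.65 CPM in C57BL/6J, lay between 2.7 ± 1.78 in 129S1/SvImJ and 4.85 ± 2.81 in DBA/2J in 7 strains, and was 1.73 ± 0.722 in CAST/EiJ. The edgeR strain effect was at the threshold (adjusted p = 0.0499): it was 0.0521 with median-of-ratios scaling and 0.0507 with a filter at a mean of 10 counts, and it was lost in 16 of the 27 leave-one-out fits, which each omit 1 library, reaching 0.176 without C57BL/6J replicate 2. The log2 fold change was 1.24 ± 0.35 in C57BL/6J (edgeR adjusted p = 0.0157) and -1.26 ± 0.46 in CAST/EiJ (edgeR adjusted p = 0.0324). Without C57BL/6J replicate 2 the former was 0.99 (edgeR adjusted p = 0.162). The latter was -0.99 without CAST/EiJ replicate 4 (edgeR adjusted p = 0.175), -1.21 without replicate 5 (0.106) and -0.85 with the replicate number as a block (0.236). In the block fit replicate 5, a number that only CAST/EiJ has, carries no weight in the CAST/EiJ value.

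Macrophage transcripts moved with Gdf15. The 3 most similar genes were Adgre1 (r 0.786), which encodes the macrophage antigen F4/80, Cxcl9 (0.769), an interferon-induced chemokine, and Laptm5 (0.757), a lysosomal protein of blood cells. The sum of the 10 Kupffer cell markers lay between 209.9 and 280.7 CPM in C57BL/6J and between 59.4 and 72.5 in CAST/EiJ, and all 10 were detected in all libraries. The strain means of the sum did not follow those of Gdf15 throughout. PWK/PhJ and A/J averaged 248 and 208.9 CPM, near the 250.1 of C57BL/6J, with Gdf15 at 4.38 and 3.51 CPM, and the lowest mean of the sum, 60.5 CPM, was in 129S1/SvImJ. All 10 were higher in C57BL/6J (11.6% over all genes) and 5 were lower in CAST/EiJ (17.8%) in the edgeR contrasts. Within strains, as deviations of each library from its strain mean, the correlation of Gdf15 with the 10 markers was positive for all 10, with a median of 0.62 against 0.01 over all genes tested. The part of Kupffer cells in the Gdf15 result was not tested.

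**Figure D3:**
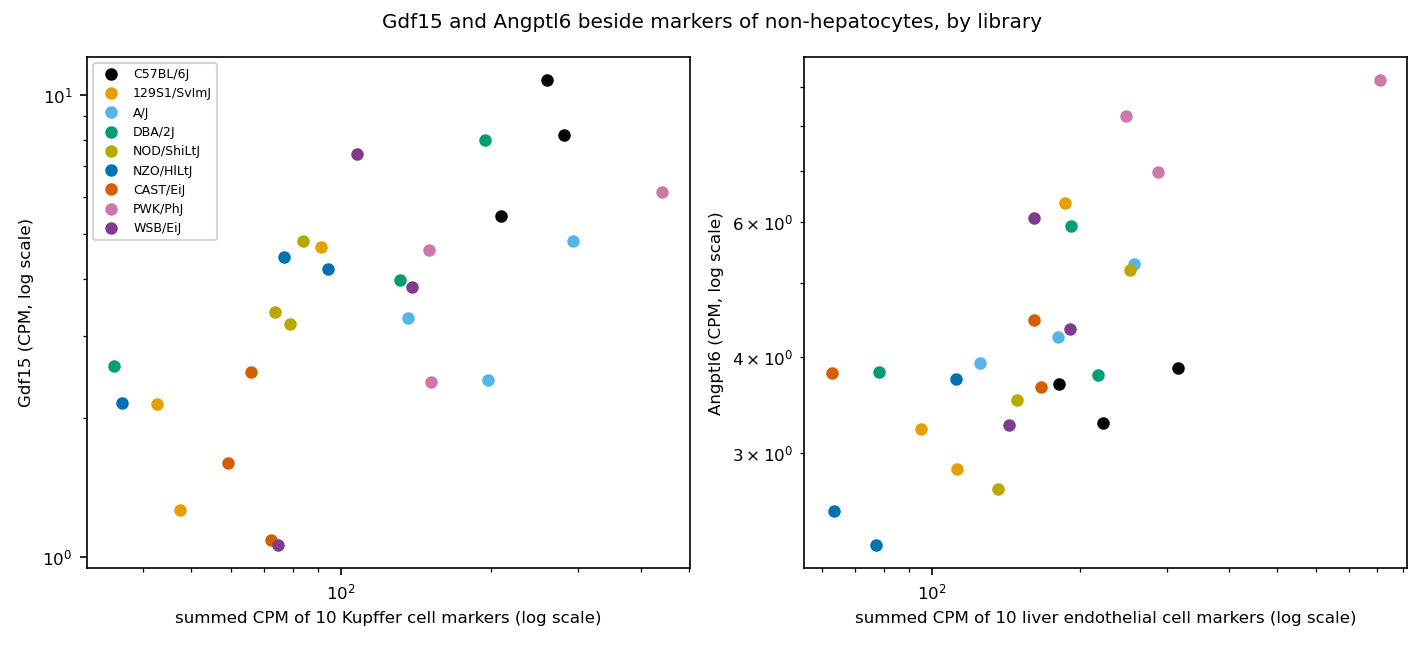
Left, Gdf15 against the summed CPM of 10 Kupffer cell markers; right, Angptl6 against the summed CPM of 10 liver endothelial cell markers (all axes logarithmic, 27 libraries, coloured by strain). Gdf15 is highest in a C57BL/6J library (10.8 CPM), while PWK/PhJ replicate 1 and A/J replicate 2 have higher Kupffer sums (442.1 and 292.5 CPM) than any C57BL/6J library and 6.15 and 4.82 CPM of Gdf15. Angptl6 is highest in the PWK/PhJ libraries, and 3 libraries of C57BL/6J, A/J and NOD/ShiLtJ reach the endothelial sums of these (314.9, 256.8 and 252.6 CPM) with 3.87, 5.29 and 5.2 CPM of Angptl6.

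Inhbe (ENSMUSG00000047492, chr10:127348857-127354411) and Inhbc (ENSMUSG00000025405, chr10:127356322-127370431) lie next to each other on the minus strand, 1910 bases apart. For Inhbe, the A/J libraries had 39.9, 57.4 and 81.6 CPM and the C57BL/6J libraries 63.1, 32.1 and 71 CPM. At the other end PWK/PhJ had 21.3, 13.1 and 10.4 CPM and WSB/EiJ had 14.3, 15.3 and 8.61 CPM. All A/J and C57BL/6J libraries lay above all PWK/PhJ and WSB/EiJ libraries, while 129S1/SvImJ spanned from 10.5 to 45.7 CPM.

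The strain means of Inhbe were 59.6 ± 20.9 CPM in A/J, 55.4 ± 20.6 in C57BL/6J, 36.9 ± 6.42 in DBA/2J, 34.5 ± 9.48 in NZO/HlLtJ and 27.5 ± 8.43 in CAST/EiJ. They were 25.3 ± 4.98 in NOD/ShiLtJ, 24.6 ± 18.6 in 129S1/SvImJ, 14.9 ± 5.7 in PWK/PhJ and 12.7 ± 3.61 in WSB/EiJ, 4.68-fold from end to end. The edgeR log2 fold change was 1.18 ± 0.27 in A/J (adjusted p = 0.00235), 1.06 ± 0.27 in C57BL/6J (adjusted p = 0.00835), -1.07 ± 0.33 in PWK/PhJ (adjusted p = 0.0148) and -1.32 ± 0.34 in WSB/EiJ (adjusted p = 0.00567). Each of the 4 calls was lost without some library of its own strain: A/J replicate 3 (adjusted p = 0.0763), C57BL/6J replicate 4 (0.131), PWK/PhJ replicate 2 or 3 (0.0771 and 0.103) and WSB/EiJ replicate 4 (0.0576). Most like Inhbe over the libraries were Arel1 (r 0.835), a ubiquitin ligase, Adcy6 (0.777), an adenylyl cyclase, and Rai1 (0.773).

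Inhbc was higher than its neighbour in level, with a median of 40.8 against 5.64 CPM per kilobase, over annotated exons of 1859 and 5319 bases. In CPM, not divided by exon length, the medians were 75.8 for Inhbc and 30 for Inhbe. The size of the gap per kilobase thus depends on the long GENCODE model of Inhbe. The Inhbc libraries had 140.9, 93.5 and 160.6 CPM in A/J, 65.7, 35.5 and 48.1 in 129S1/SvImJ and 61.2, 54.4 and 43.1 in WSB/EiJ. The A/J libraries lay above all libraries of both other strains. The means were 131.6 ± 34.5 CPM in A/J, 49.8 ± 15.2 in 129S1/SvImJ and 52.9 ± 9.17 in WSB/EiJ, and lay between 63.4 ± 16.3 in PWK/PhJ and 100.9 ± 30.4 in C57BL/6J elsewhere. The edgeR log2 fold change was 0.9 ± 0.17 in A/J (adjusted p = 0.000345), -0.68 ± 0.2 in 129S1/SvImJ (adjusted p = 0.0177) and -0.58 ± 0.19 in WSB/EiJ (adjusted p = 0.0313). The 129S1/SvImJ call was lost without replicate 2 or 3 of that strain (adjusted p = 0.183 and 0.0741) and the WSB/EiJ call without replicate 4 or 3 (0.19 and 0.0923). The A/J difference was called in all 27 leave-one-out fits. Most like Inhbc were Serinc2 (r 0.78), Colec12 (0.755), a scavenger receptor, and Zfp236 (0.75).

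The activin subunit genes also moved together within strains. The correlation of their deviations from the strain means was 0.7 over 27 libraries (Spearman's rho 0.66; 100000 two-sided permutations within strains, p = 0.0062, adjusted over 36 member pairs 0.045), and 0.59 without the 2 libraries farthest from the median. By Spearman's rho the adjusted permutation p was 0.06. The library does not keep strand, and 268 exon bases of Inhbc overlap exons of the antisense gene Gm47200, whose reads cannot be told apart from those of Inhbc there; the exons of Inhbe lie inside its introns. Of the other subunits, Inhba was highest in A/J (6.96 ± 2.75 CPM) and lowest in PWK/PhJ (2.43 ± 0.36 CPM; edgeR adjusted p = 0.0182), Inhbb did not pass (edgeR adjusted p = 0.434) and Inha, the inhibin alpha subunit, was close to 0 and not tested. Fst, which encodes the activin-binding protein follistatin, ran from 1.48 ± 0.617 CPM in DBA/2J to 18.5 ± 9.75 in WSB/EiJ (edgeR adjusted p = 8.55e-06), and WSB/EiJ was also the strain with the lowest Inhbe.

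Angptl4 (ENSMUSG00000002289, chr17:33773750-33781830) varied widely within strains. The C57BL/6J libraries had 162.9, 229.5 and 296.4 CPM and those of DBA/2J had 36.2, 104.2 and 28.7 CPM. These did not overlap, but 129S1/SvImJ ranged from 98.9 to 300.3 CPM and NOD/ShiLtJ from 28.9 to 179.1 CPM. The median coefficient of variation within a strain was 59.6% for Angptl4, against 14.9% for Ahsg.

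The strain means of Angptl4 were 229.6 ± 66.7 CPM in C57BL/6J, 184.8 ± 46.6 in WSB/EiJ, 173.1 ± 110.7 in 129S1/SvImJ, 170.4 ± 40 in A/J and 114.8 ± 77.4 in NOD/ShiLtJ. They were 85.2 ± 50.7 in CAST/EiJ, 66.2 ± 41.5 in NZO/HlLtJ, 65.8 ± 33.7 in PWK/PhJ and 56.4 ± 41.6 in DBA/2J. The strain effect had an edgeR adjusted p of 0.0158, and C57BL/6J was the only strain called against the others, with a log2 fold change of 1.15 ± 0.39 (edgeR adjusted p = 0.0419). This call was lost in DESeq2 (adjusted p = 0.0675) and in 13 of the 27 leave-one-out fits, with the highest adjusted p of 0.288 without C57BL/6J replicate 4. Closest to Angptl4 were St3gal5 (r 0.903), which makes the ganglioside GM3, Herpud1 (0.866), an endoplasmic reticulum protein of the unfolded protein response, and Cln8 (0.782). Within strains Angptl4 had positive correlations with 10 of 10 endothelial markers (median 0.42), 9 of 10 stellate markers (0.49) and 9 of 10 Kupffer markers (0.14). It also had them with 10 of 10 hepatocyte markers (0.36) and 8 of 9 genes of the lipoprotein lipase system (0.43). The median over all genes tested was 0. The part of any of these cells in the spread of Angptl4 was not tested.

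Angptl6 (ENSMUSG00000038742, chr9:20873808-20879727) was set apart in PWK/PhJ. The PWK/PhJ libraries had 9.18, 8.25 and 6.97 CPM, above each of the other 24 libraries, of which the highest, in 129S1/SvImJ, had 6.36 CPM. The lowest strain, NZO/HlLtJ, had 2.52, 2.28 and 3.75 CPM. The means were 8.13 ± 1.11 CPM in PWK/PhJ and 2.85 ± 0.79 in NZO/HlLtJ, and the 7 other strains lay within 3.62 ± 0.3 in C57BL/6J and 4.57 ± 1.41 in WSB/EiJ.

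The edgeR log2 fold change of Angptl6 was 1.04 ± 0.19 in PWK/PhJ (adjusted p = 0.000169) and -0.67 ± 0.23 in NZO/HlLtJ (adjusted p = 0.0322; 0.204 without NZO/HlLtJ replicate 2 and 0.165 without replicate 1). The step from PWK/PhJ to the next strain, WSB/EiJ, was 0.83 ± 0.28 (edgeR adjusted p = 0.0288). Without PWK/PhJ replicate 1, the library with the highest marker sums of other cells, the log2 fold change was 0.94 (edgeR adjusted p = 0.00396). Angptl6 had estimated counts that were not whole in 27 of 27 libraries, and 265 of its 1582 exon bases overlap exons of A230050P20Rik on the other strand, so how the reads there were divided between both genes makes its level uncertain. A230050P20Rik had 20.9 ± 7.41 CPM in PWK/PhJ and was highest in DBA/2J (64.7 ± 19.8 CPM). The part of the shared bases in the Angptl6 differences was not tested.

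Endothelial transcripts moved with Angptl6. The most similar genes were Sod3 (r 0.892), extracellular superoxide dismutase, Colec11 (0.845), a collectin, and Plvap (0.845), an endothelial protein. The sum of the 10 liver endothelial markers lay between 248.2 and 808.6 CPM in PWK/PhJ and between 63.3 and 112 in NZO/HlLtJ, and none of the markers was at 0 in any library. In the other strains it ran from 62.7 to 314.9 CPM. The highest of these, C57BL/6J replicate 4, was above PWK/PhJ replicates 2 and 3 in this sum but had 3.87 CPM of Angptl6. C57BL/6J had the next highest strain mean of the sum after PWK/PhJ (239.5 and 448.1 CPM) and was 8 in the order of 9 for Angptl6. All 10 were higher in PWK/PhJ (19.4% over all genes) and 8 were lower in NZO/HlLtJ (12.9%). Within strains the correlation of Angptl6 with these markers was positive for 10 of 10, with a median of 0.55, and for the stellate cell markers it was 0.53, also 10 of 10. The median over all genes tested was 0.01. The stellate sum lay between 133.4 and 194.3 CPM in PWK/PhJ and between 32.8 and 57.1 in NZO/HlLtJ, and 1 of its 10 markers, Col1a1, was at 0 in some library. The part of these cells in the Angptl6 result was not tested.

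Angptl8 (ENSMUSG00000047822, chr9:21835510-21837347) had the highest level in PWK/PhJ and DBA/2J. The PWK/PhJ libraries had 106.9, 92.5 and 16.8 CPM and the DBA/2J libraries 49.1, 49 and 83.4 CPM, while those of 129S1/SvImJ had 21.3, 3.92 and 12.4 CPM. The low PWK/PhJ library, replicate 3, fell inside the 129S1/SvImJ range, and all DBA/2J libraries lay above it.

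The means of Angptl8 were 72.1 ± 48.4 CPM in PWK/PhJ, 60.5 ± 19.9 in DBA/2J, 34.2 ± 4.82 in NZO/HlLtJ, 30.1 ± 20.1 in C57BL/6J and 27.8 ± 3.84 in A/J. They were 23.8 ± 7.69 in CAST/EiJ, 22.7 ± 12.7 in NOD/ShiLtJ, 21.6 ± 6.96 in WSB/EiJ, with 129S1/SvImJ last at 12.5 ± 8.7. The edgeR log2 fold change was 1.43 ± 0.37 in PWK/PhJ (adjusted p = 0.00369), 1.15 ± 0.38 in DBA/2J (adjusted p = 0.0443) and -1.41 ± 0.48 in 129S1/SvImJ (adjusted p = 0.0414). Without PWK/PhJ replicate 1 the first of these was 1.03 (adjusted p = 0.0928). The DBA/2J call was lost in DESeq2 (adjusted p = 0.077) and in 12 of the 27 leave-one-out fits (up to 0.25, without DBA/2J replicate 4), and the 129S1/SvImJ call in 5 of them (up to 0.243, without 129S1/SvImJ replicate 2). The 129S1/SvImJ log2 fold change was -2.03 without replicate 1 of that strain and -0.98 without replicate 2. All 865 exon bases of Angptl8 lie inside introns of Dock6 on the other strand, so reads from unspliced Dock6 cannot be told apart from those of Angptl8. Dock6 had its highest mean in DBA/2J (25.4 ± 5.53 CPM) and had 9.51 ± 5.05 CPM in PWK/PhJ, where Angptl8 was highest. These gene-level counts do not set unspliced reads apart, and the part of such reads in the Angptl8 differences was not tested.

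Angptl8 moved against Angptl4 and with the immediate early genes, which are switched on within minutes of a stimulus. As a description that includes the strain differences, the correlation of Angptl8 with Angptl4 was -0.57 over the 27 libraries (rho -0.6). Within strains it was -0.48 (rho -0.52; -0.44 without the 2 farthest libraries), with a two-sided permutation p of 0.048 that did not pass after adjustment over the 36 member pairs (0.14). With the 9 tested immediate early genes, the within-strain correlation of Angptl8 was positive for all 9 with a median of 0.66, and that of Angptl4 was negative for 8 of 9 with a median of -0.56. The medians over all genes tested were 0.01 for Angptl8 and 0 for Angptl4. The summed CPM of the 10 immediate early genes, of which Fosb was at 0 in some library, lay between 100.4 and 175.8 in 129S1/SvImJ and between 82.5 and 118.2 in DBA/2J. In PWK/PhJ it was 254, 329.9 and 84.1 in replicates 1 to 3, and the replicate with the low sum was the one with low Angptl8. In the PWK/PhJ contrast 2 of the 9 were higher (22.2%, near the 19.4% over all genes), and in those of DBA/2J and 129S1/SvImJ 0 of the 9 were called. In the 7 strains that have a library numbered 1, that library was the highest for Angptl8 in 6 and the lowest for Angptl4 in 5; what the number stands for is not given in the sources used here. In the fit with a replicate block, the edgeR log2 fold change of Angptl8 was 1.31 in PWK/PhJ (adjusted p = 0.00627), 1.44 in DBA/2J (0.00927) and -1.51 in 129S1/SvImJ (0.0204), and that of Angptl4 in C57BL/6J was 1.41 (0.00112), so these calls were made with it as well. The part of the immediate early genes in the strain differences was not tested.

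**Figure D4:**
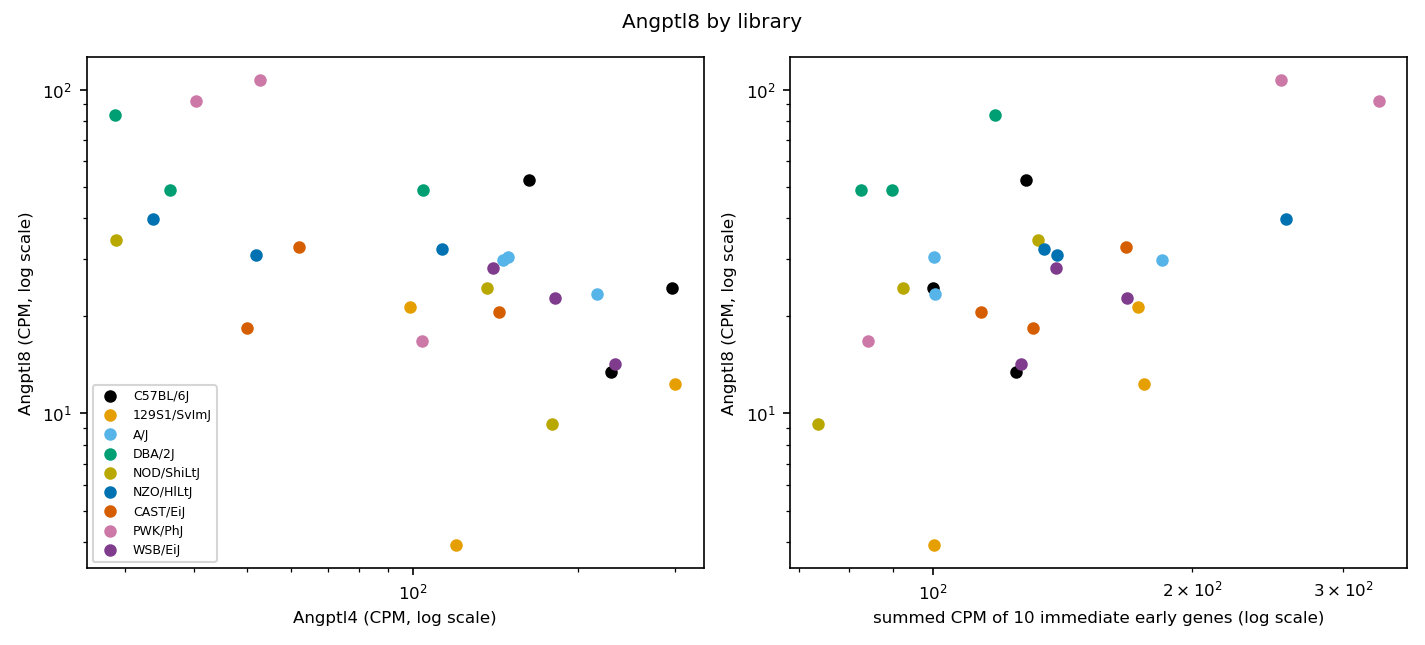
Angptl8 against Angptl4 (left) and against the summed CPM of 10 immediate early genes (right) in 27 libraries coloured by strain, all axes logarithmic. Libraries with much Angptl4 tend to have little Angptl8 (r -0.57), and the PWK/PhJ library with 16.8 CPM of Angptl8 has the lowest immediate early sum of that strain, 84.1 CPM.

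ANGPTL4 and ANGPTL8 act on lipoprotein lipase, and all 9 listed genes of that system were called for the strain effect, against 74.2% of all genes tested. Lpl, the lipase itself, ran from 2.27 ± 0.505 CPM in CAST/EiJ to 62.1 ± 13.2 in A/J (edgeR adjusted p = 6.65e-09), and Apoc2, its apolipoprotein cofactor, which had the next largest range among those averaging at least 10 CPM, from 107.6 ± 2.44 in NZO/HlLtJ to 372.9 ± 109.8 in WSB/EiJ (edgeR adjusted p = 4.26e-07). In NZO/HlLtJ 7 of the 9 were lower and 0 higher (12.9% and 14.8% over all genes). Of the 14 genes of carbohydrate response and lipogenesis, the programme with which Angptl8 is known to rise after feeding, 11 were called, a share of 78.6%, near the 74.2% over all genes tested. In the strains with most Angptl8, 6 of the 14 were higher and 1 lower in PWK/PhJ (19.4% and 14.8% over all genes), and 4 were higher and 0 lower in DBA/2J (9.5% and 3.78%). Their regulator Mlxipl (ChREBP) was highest in DBA/2J, 340 ± 74.4 CPM, but missed the threshold (edgeR adjusted p = 0.0544). Among those averaging at least 10 CPM, the largest ranges were in Scd1, a fatty acid desaturase with 8040 ± 5200 CPM in C57BL/6J and 848 ± 598.5 in CAST/EiJ, and Txnip, a glucose-induced thioredoxin inhibitor with 115.6 ± 50.9 CPM in PWK/PhJ and 26 ± 5.76 in NZO/HlLtJ. Pnpla3, a lipid droplet protein below that level and named after its values were seen, had a larger range, with 32.6 ± 7.25 CPM in PWK/PhJ, the strain with most Angptl8, and 0.952 ± 0.885 in WSB/EiJ. Within strains, Angptl8 correlated positively with 4 of the 14 carbohydrate response and lipogenesis genes and negatively with 10 (median -0.22). With the PPAR-alpha list its correlation was positive for 17 of 18 (median 0.25), against a median of 0.01 over all genes tested. The part of feeding or fasting in these relations was not tested. The closest genes to Angptl8 were S1pr1 (r 0.664), Efna1 (0.643) and Chpf2 (0.642), lower values than those of the closest genes of each other member.

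Fetub (ENSMUSG00000022871, chr16:22918334-22939778) separated the wild-derived from the classical strains. Its libraries had 3037, 1815 and 1641 CPM in PWK/PhJ, 1659, 2172 and 2531 in CAST/EiJ and 2282, 2679 and 1368 in WSB/EiJ. The 18 libraries of the 6 classical strains had a lowest value of 472.4, a median of 652 and a highest value of 1001 CPM. Every wild-derived library was thus above every classical one. Only 25 of the 14482 genes tested (0.173%) separated these groups of strains in that direction, and 60 (0.414%) did so in either.

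The strain means of Fetub were almost equal in the upper group, at 2164 ± 760.7 CPM in PWK/PhJ, 2121 ± 438.3 in CAST/EiJ and 2110 ± 672.4 in WSB/EiJ. The classical strains followed with 864.3 ± 121.7 in A/J, 801.7 ± 96.4 in C57BL/6J, 634.2 ± 72.4 in NOD/ShiLtJ, 594 ± 106 in DBA/2J, 592.7 ± 90.8 in 129S1/SvImJ and 547.3 ± 56 in NZO/HlLtJ. The mean of the wild-derived strain means was 3.17-fold that of the classical ones. The step from WSB/EiJ to A/J was 1.29 ± 0.24 on the log2 scale (edgeR adjusted p = 0.000492). Against the 8 other strains the edgeR log2 fold change was 1.29 ± 0.16 in PWK/PhJ (adjusted p = 6.69e-07), 1.26 ± 0.16 in CAST/EiJ (adjusted p = 8.31e-07) and 1.25 ± 0.16 in WSB/EiJ (adjusted p = 2.02e-06). It was between -0.94 in NZO/HlLtJ and -0.7 in NOD/ShiLtJ in the 4 classical strains that were called. For these the mean of the 8 others included the 3 wild-derived strains. Among the classical strains no neighbouring pair differed, the lowest edgeR adjusted p being 0.35 (C57BL/6J and NOD/ShiLtJ). The calls in the 3 wild-derived strains held in all 27 leave-one-out fits, while those in 129S1/SvImJ and NOD/ShiLtJ were lost without 129S1/SvImJ replicate 2 (adjusted p = 0.0583) and without NOD/ShiLtJ replicate 1 or 3 (0.0841 and 0.0851). Strains explained 91.3% of the variation of Fetub among libraries, the largest share of any member, against 46.7% for Gdf15.

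Within strains Fetub moved with the endothelial markers, with a median correlation of 0.7 and 10 of 10 positive, and with the Kupffer and stellate markers, with 0.55 each and 10 of 10 positive. The median over all genes tested was 0.02. The endothelial sum averaged 130.3 CPM in CAST/EiJ, 165 in WSB/EiJ, 448.1 in PWK/PhJ and 239.5 in C57BL/6J. The Kupffer sum averaged 66 CPM in CAST/EiJ, 107.2 in WSB/EiJ, 248 in PWK/PhJ and 250.1 in C57BL/6J, and the stellate sum 60.1, 99.4, 156.9 and 73.9 in the same order. The part of these cells in the Fetub differences was not tested. Without PWK/PhJ replicate 1, which had the highest sums and the highest Fetub, the PWK/PhJ log2 fold change was 0.96 (edgeR adjusted p = 0.00015). Most similar to Fetub were Ces2h (r 0.928), a carboxylesterase, Pcsk5 (0.903), a proprotein convertase, and Serpine2 (0.873), a protease inhibitor. Whether reads of each strain were aligned to its own genome is not given in the sources used here, and the part of alignment in the division was not tested.

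Ahsg (ENSMUSG00000022868, chr16:22891277-22899449) lies 18884 bases before Fetub on the same strand and did not share its division. The A/J libraries had 16810, 12950 and 20700 CPM and the CAST/EiJ libraries 8439, 6437 and 7150 CPM, without overlap. The wild-derived libraries ran from 6437 to 14730 CPM and the classical ones from 6316 to 20700 CPM, so the former lay inside the range of the latter. The ratio of wild-derived to classical strain means was 0.907, and it was 1.35 for Hrg and 1.12 for Kng1, other cystatin-superfamily genes of the cluster, whose libraries overlapped as well. Kng2, which lies between Hrg and Kng1, was higher in PWK/PhJ (711.9 ± 202.1 CPM) and lower in CAST/EiJ and NZO/HlLtJ (252.4 ± 15.3 CPM in the latter).

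**Figure D5:**
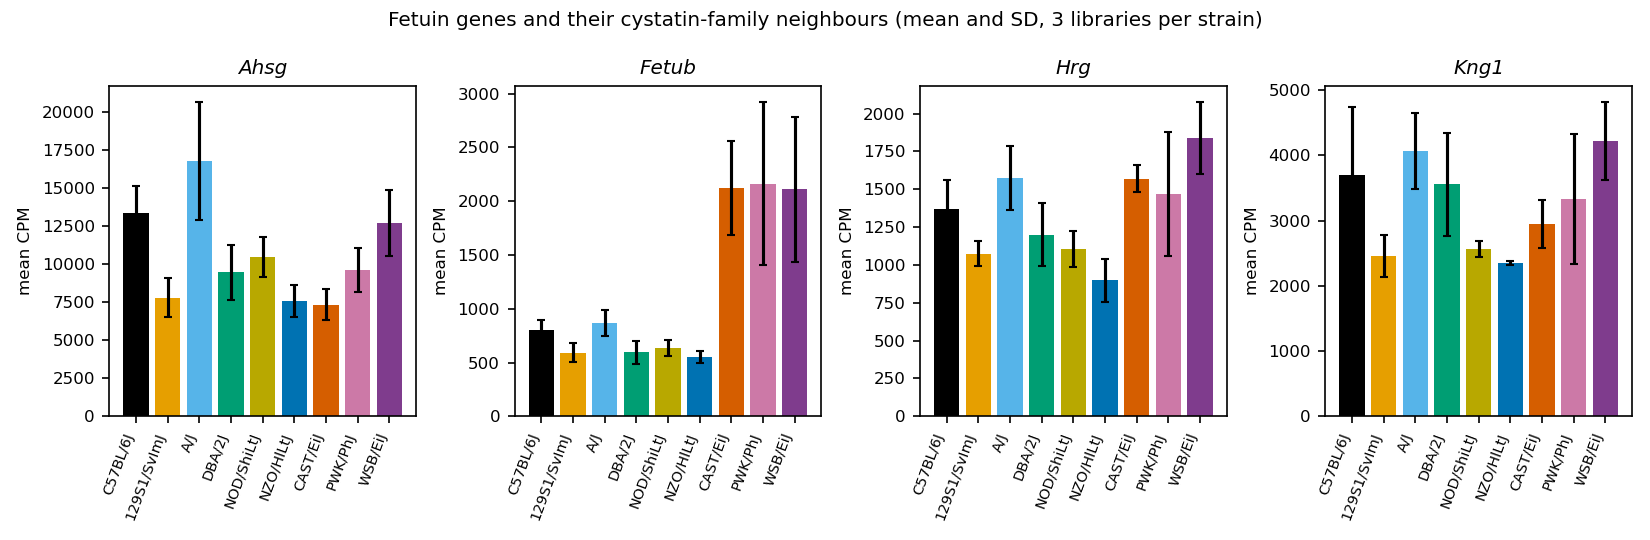
Mean CPM per strain with SD (n = 3) for the neighbouring cystatin-superfamily genes Ahsg, Fetub, Hrg and Kng1, on linear axes from 0. Fetub has a step between the 3 wild-derived strains (2110 to 2164 CPM) and the 6 classical ones (547.3 to 864.3 CPM) that the other genes plotted lack.

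The strain means of Ahsg were 16820 ± 3876 CPM in A/J, 13360 ± 1799 in C57BL/6J, 12720 ± 2190 in WSB/EiJ, 10480 ± 1309 in NOD/ShiLtJ and 9642 ± 1435 in PWK/PhJ. They were 9467 ± 1785 in DBA/2J, 7789 ± 1280 in 129S1/SvImJ, 7596 ± 1042 in NZO/HlLtJ and 7342 ± 1014 in CAST/EiJ, 2.29-fold from end to end. The edgeR log2 fold change was 0.81 ± 0.15 in A/J (adjusted p = 0.000263), -0.53 ± 0.17 in CAST/EiJ (adjusted p = 0.0146) and -0.48 ± 0.17 in NZO/HlLtJ (adjusted p = 0.036). It was 0.44 ± 0.15 in C57BL/6J, at the threshold (adjusted p = 0.0491), and this call was lost in 19 of the 27 leave-one-out fits, up to 0.291 without C57BL/6J replicate 2. The CAST/EiJ call was lost without replicate 4 or 5 (adjusted p = 0.105 and 0.0647) and with the replicate number as a block (0.152). In the block fit CAST/EiJ replicate 5 again carries no weight. The NZO/HlLtJ call was lost in 5 of the leave-one-out fits (up to 0.177, without NZO/HlLtJ replicate 2). Of the 10 hepatocyte markers, 4 were higher and 2 lower in A/J (15.9% and 11.6% over all genes), and 2 were higher and 3 lower in CAST/EiJ (20.1% and 17.8%). Alb and Ttr, which encode the plasma proteins albumin and transthyretin, had the same extremes as Ahsg, whereas Cps1, a urea cycle enzyme, was lower in A/J and higher in CAST/EiJ. The closest matches of Ahsg were Rrbp1 (r 0.913), a ribosome-binding protein of the rough endoplasmic reticulum, Ficd (0.909), which modifies the chaperone BiP, and Maco1 (0.906).

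Ahsg and Fetub, although unlike across strains (r 0.06 over the 9 strain means), moved together within strains. The correlation of their deviations was 0.63 (rho 0.67; 0.55 without the 2 farthest libraries; permutation p = 0.0041, adjusted 0.045, and 0.06 by rho). Of the 36 pairs of members, 32 had a positive correlation within strains and 5 an adjusted permutation p under 0.05, all positive. Besides the fetuin pair and the activin subunit pair these were Fgf21 with Inhbc (r 0.71; 0.62 without the 2 farthest libraries), Inhbe with Angptl8 (0.7; 0.59) and Inhbc with Angptl8 (0.64; 0.71), each with an adjusted permutation p of 0.045. The permutations do not take the replicate number into account. In the 7 strains with a library numbered 1, that library was the highest in 5 for Inhbc and in 4 each for Inhbe and Fgf21, besides the 6 for Angptl8, and the part of the number in these pairs was not tested. By Spearman's rho no pair passed, the lowest adjusted permutation p being 0.06. With the 16 tested genes of the integrated stress response the median within-strain correlation was -0.04 for Inhbe, -0.08 for Angptl8 and 0.1 for Fgf21, beside medians over all genes tested of 0.02, 0.01 and 0.02. The part of the stress response or of the TGATGCAA letters in these correlations was not tested.

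Other liver-secreted signals, a list without the 9 members, also differed among strains. All 18 tested genes were called for the strain effect, against 74.2% of all genes tested, and their median range was 2.48 on the log2 scale. The median range was 1.45 for the carbohydrate response and lipogenesis list, 1.4 for the lipoprotein lipase system, 1.31 for the integrated stress response, 1.28 for the PPAR-alpha list and 1.15 for the receptors and binding partners, each above the 0.95 over all genes tested. The largest ranges were in Lcn2, an acute phase protein with 228.4 ± 296.7 CPM in WSB/EiJ and 0.379 ± 0.325 in NZO/HlLtJ, and in Enho, which encodes adropin, with 50.6 ± 4.76 CPM in NOD/ShiLtJ and 0.511 ± 0.242 in PWK/PhJ. In A/J 9 of the 18 were higher and 1 lower (15.9% and 11.6% over all genes), and in WSB/EiJ 10 were higher and 1 lower (15.5% and 9.25%). In CAST/EiJ 2 were higher and 8 lower (20.1% and 17.8%), as in NZO/HlLtJ (14.8% and 12.9%).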

How the data were processed

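Hepatocyte RNA of 27 libraries (9 strains, 3 each) was analysed. Per the labels' protocols, polyadenylated RNA was selected and libraries were made with a TruSeq kit that does not mark strand. The authors deposited a table of estimated counts per Ensembl gene, not scaled to depth; 14.7% of the values were not whole. The submitters' processing notes name GRCm38, mm10, FastQC 0.11.5 and DESeq2; the aligner, the counting program and the annotation release are not given in the sources used here. Symbols, coordinates and exon lengths came from GENCODE M21 (GRCm38), which named 42462 gene IDs.

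Estimated counts were rounded, which changed no library total by more than 0.00026%. In R 4.3.3, edgeR 4.0.16 (limma 3.58.1) kept 14482 genes (filterByExpr by strain) and scaled libraries by TMM (factors 0.722 to 1.226). A quasi-likelihood model was fitted to all libraries with strain as the factor; adjusted p-values are Benjamini-Hochberg values over all genes tested, called under 0.05. CPM values use the scaled library sizes. Strain ranges used log2(CPM + 0.5), and correlations log2 CPM with a prior count of 2. The scripts were tested on simulated data.

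All 9 members are named. Of each other list, those named were chosen receptors, regulators or targets and the 2 with the largest range among called genes averaging at least 10 CPM. Where ranges tied, both are given. 1 gene chosen in this way is not reported here. The 3 most similar protein-coding genes are named per member. The members and lists were chosen with earlier results of these data known. Replicate numbers were not taken to pair libraries, since over all genes same-numbered libraries of different strains had correlations of their deviations from -0.293 to 0.275 (mean 0.01, 76 pairs). Single members can still move with the number, as Angptl8 and Angptl4 did. DESeq2 1.42.0, other scalings and filters, a replicate block and leaving out each library were tried.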

Additional observations from a re-analysis of the deposited data

How the results depend on the processing

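With 9 of 9 members called for the strain effect in the edgeR fit, the alternatives gave 8 (median-of-ratios scaling, a mean of at least 10 counts) or 9 (upper-quartile scaling, no filter, DESeq2, the replicate block). The 29 member calls against the other strains became 28 to 31 under these settings; at least 27 of the 29 were shared in each. Leaving out each library gave 8 to 9 members, 24 to 29 strain calls and 1 to 3 called neighbouring pairs. The 1 came without PWK/PhJ replicate 1 or 2 or WSB/EiJ replicate 3 or 4. No direction of a called result reversed.

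With the replicate number as a block, 9 members, 31 of 81 strain tests and 2 of 72 neighbouring pairs were called, and 9350 genes over the table against 10746. The block took the strain effect on Angptl4 from an edgeR adjusted p of 0.0158 to 0.000248. The calls lost were Gdf15 (adjusted p = 0.236) and Ahsg (adjusted p = 0.152) in CAST/EiJ, by edgeR. The number 5 occurs only in CAST/EiJ, so the block fits that library exactly. The CAST/EiJ values of this fit thus rest on replicates 1 and 4, and both calls were also lost without replicate 5 alone. Without a filter, Ahsg was lost in C57BL/6J (edgeR adjusted p = 0.132) and NZO/HlLtJ (0.116), and with median-of-ratios scaling in C57BL/6J (0.0557). The highest and lowest strain of each member stayed the same under both other scalings. Depth limits Fgf21 most, with as little as 1 count in a library.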
